A study of Homo sapiens with 4 samples.

Results

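Collagens are extracellular proteins built as triple helices of 3 α chains, and each chain has its own gene. The collagen genes were taken by symbol, as every row of the count tables named COL, a number, A and a single digit. This gave 44 of 24424 genes, and it left out antisense transcripts and pseudogenes of the family. The genes were measured by RNA sequencing in BEAS-2B, an immortalised human bronchial epithelial line labelled as wild type in genotype. There was 1 library in each of 4 groups: untreated cells (control), cells given LPS (bacterial lipopolysaccharide) for 2 h, cells transfected with siRNA against occludin for 24 h before LPS for 2 h (siOCLN+LPS), and cells transfected with wild-type occludin for 24 h before LPS for 2 h (labelled wtOCLN+LPS). No transfection reagent, empty vector or control siRNA is named for the control and LPS cells, so transfection itself cannot be told apart from what was transfected. Nothing in the labels says how many cultures a library came from.

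Chains assemble in the endoplasmic reticulum, where prolines and lysines are hydroxylated and the chaperone encoded by SERPINH1 holds the helix, and many are trimmed and cross-linked after secretion. Airway basal cells rest on a basement membrane whose scaffold is a type IV collagen network, and type VII collagen fibrils tie that membrane to the stroma. Fibrillar collagens such as types I, III and V are known mainly as products of fibroblasts.

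Library totals lay between 13867494 and 17500031 counts, and the levels below are CPM, counts scaled to a total of 1000000. The LPS library was the shallowest and the 2 transfected libraries were the deepest. OCLN, the gene that encodes occludin, was at 55.4 CPM in control, 50.4 CPM in LPS, 21.0 CPM with siOCLN+LPS and 29.7 CPM for the library labelled wtOCLN+LPS. Its level in the last library goes against that label, so no direction of raised occludin is drawn from it. Intervals in brackets are exact 95% intervals and cover counting error only; the sources name no molecular identifiers. With 1 library per group no p-value could be had, and each difference is one between libraries. In bulk RNA, fewer cells of a type and less RNA per cell cannot be told apart.

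Of the 44 collagen genes, 26 reached 1 CPM in at least 1 library, 13 were detected below that level and 5 had 0 counts in all 4 libraries. Those 5 were COL6A5, COL9A1, COL19A1, COL22A1 and COL26A1, and a floor of 3 counts, set for a count of 0, would be 0.171 to 0.216 CPM. All 6 basement membrane network genes and both multiplexin genes reached 1 CPM, as did 7 of 11 fibrillar, 5 of 10 fibril-associated, 2 of 5 beaded filament and 1 of 4 transmembrane genes. The 44 genes held 921 CPM in control (906 to 936), 1027 CPM in LPS (1010 to 1044), 1239 CPM with siOCLN+LPS (1223 to 1256) and 1248 CPM for the library labelled wtOCLN+LPS (1232 to 1265). The sum was 1.12-fold higher in LPS than in control (1.09 to 1.14), 1.21-fold LPS with siOCLN+LPS (1.18 to 1.23) and 1.22-fold LPS for the library labelled wtOCLN+LPS (1.19 to 1.24). The transfected libraries had sums within counting error of each other (ratio 0.993, 0.974 to 1.01). These intervals leave out the choice of scaling. With TMM scaling (a trimmed mean of ratios) the sums were 831, 988, 1321 and 1349 CPM in the order above. The folds of LPS over control and of the transfected libraries over LPS were then larger.

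**Figure D1:**
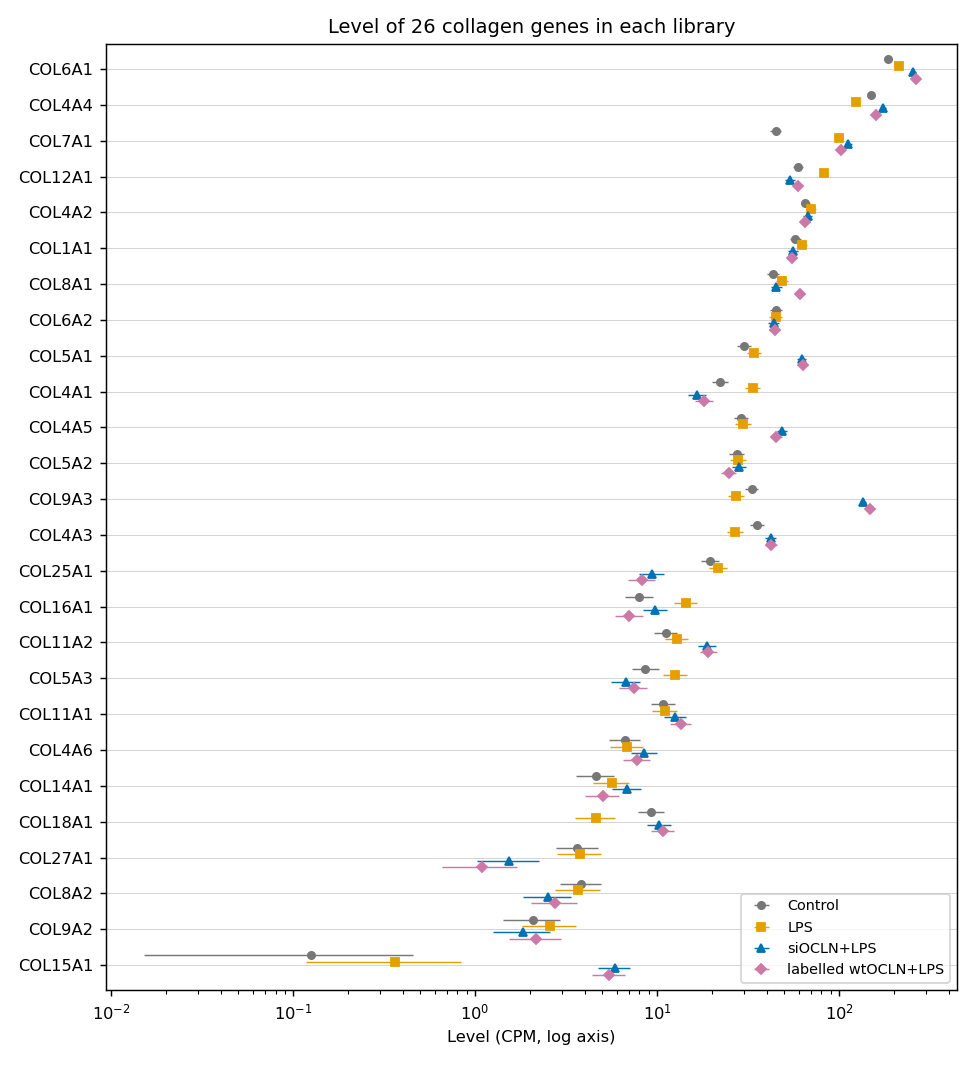
Level of the 26 collagen genes that reached 1 CPM in a library, on a logarithmic CPM axis, with 1 point per library and exact 95% Poisson intervals for counting error. COL9A3 and COL15A1 sit farthest above the control and LPS points in both transfected libraries. COL5A1 (higher) and COL25A1 (lower), among others, also sit apart there, and COL7A1 sits apart in control alone.

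Per kilobase of transcript, the scale on which genes can be set against each other, COL6A1 was the highest collagen transcript in every library. It encodes a chain of type VI collagen, which forms beaded microfilaments. It stood at 44.0 CPM per kb in control, 50.3 in LPS, 60.4 with siOCLN+LPS and 62.9 for the library labelled wtOCLN+LPS. COL9A3, a chain of the cartilage-associated type IX collagen, ranked 3 in control at 13.2 CPM per kb and 4 in LPS at 10.9. In the transfected libraries it ranked 2, at 54.2 and 59.3 CPM per kb, close behind COL6A1. COL4A4, COL6A2, COL4A2, COL1A1 and COL7A1 lay between 4.83 and 17.5 CPM per kb in all 4 libraries.

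Several of the best known collagen chains had few or no counts. COL1A1, the main chain of type I collagen, was at 57.6 CPM in control, 62.7 in LPS, 56.1 with siOCLN+LPS and 55.2 for the library labelled wtOCLN+LPS. Its partner chain COL1A2 had 6, 4, 8 and 6 counts in the same libraries. COL3A1, the type III collagen chain of soft tissues, had 0, 0, 1 and 0 counts. Per kilobase COL1A1 exceeded COL1A2 109- to 193-fold, with intervals that reached from 55.2 to 712. In type VI collagen COL6A3, the remaining chain of the classical trimer, had 8, 5, 2 and 8 counts, against 2957 to 4661 counts of COL6A1. COL17A1, the transmembrane collagen of hemidesmosomes, had 8, 4, 5 and 8 counts.

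Markers of cells that make collagen in tissue were present in part. Of 8 fibroblast markers other than collagens, 3 reached 1 CPM in each library: THY1, PDGFRB and S100A4. LUM and DCN had at most 1 count in any library, POSTN had 0 in all, and PDGFRA and FAP stayed below 1 CPM. The summed fibroblast markers were 95.7 CPM in control, 68.5 in LPS, 122 with siOCLN+LPS and 131 for the library labelled wtOCLN+LPS. The members did not share 1 pattern: THY1 was at 81.6, 52.7, 64.5 and 67.8 CPM, highest in control. PDGFRB was at 12.3, 13.8, 49.4 and 55.4 CPM and S100A4 at 1.57, 1.30, 7.27 and 7.09 CPM, both higher in the transfected libraries. Of 5 smooth muscle and pericyte markers, 2 or 3 reached 1 CPM in a library, and they summed to 9.0, 8.51, 13.3 and 12.6 CPM. ACTA2, smooth muscle actin, was the highest at 4.28, 4.54, 10.4 and 9.54 CPM, while DES and CNN1 had at most 2 counts. The part of these cell type markers in the collagen levels was not tested. All 7 epithelial markers reached 1 CPM in every library, with KRT8 the highest at 372 to 976 CPM, and summed to 850, 700, 1674 and 1587 CPM. EPCAM, an epithelial adhesion molecule, was at only 1.26 to 2.67 CPM.

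By structural class, summed CPM differed most by ratio between libraries in the fibril-associated, anchoring fibril, transmembrane and multiplexin genes. The 10 fibril-associated genes, whose products sit on the surface of larger fibrils, summed to 108 CPM in control, 133 in LPS, 208 with siOCLN+LPS and 222 for the library labelled wtOCLN+LPS. COL9A3 alone held 33.0, 27.3, 135 and 148 CPM of these sums, so the higher sums in the transfected libraries came from that gene. The 6 basement membrane genes summed to 309, 291, 359 and 338 CPM, and the 11 fibrillar genes to 150, 165, 187 and 185 CPM. The 4 transmembrane genes went the other way, at 20.2, 22.1, 9.73 and 8.69 CPM. Nearly all of this was COL25A1, at 19.5, 21.6, 9.33 and 8.23 CPM. The 2 multiplexin genes summed to 9.38, 4.98, 16.1 and 16.2 CPM, the 5 beaded filament genes to 232, 258, 299.8 and 311 CPM and the 3 short-chain genes to 47.6, 52.2, 48.0 and 64.1 CPM.

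**Figure D2:**
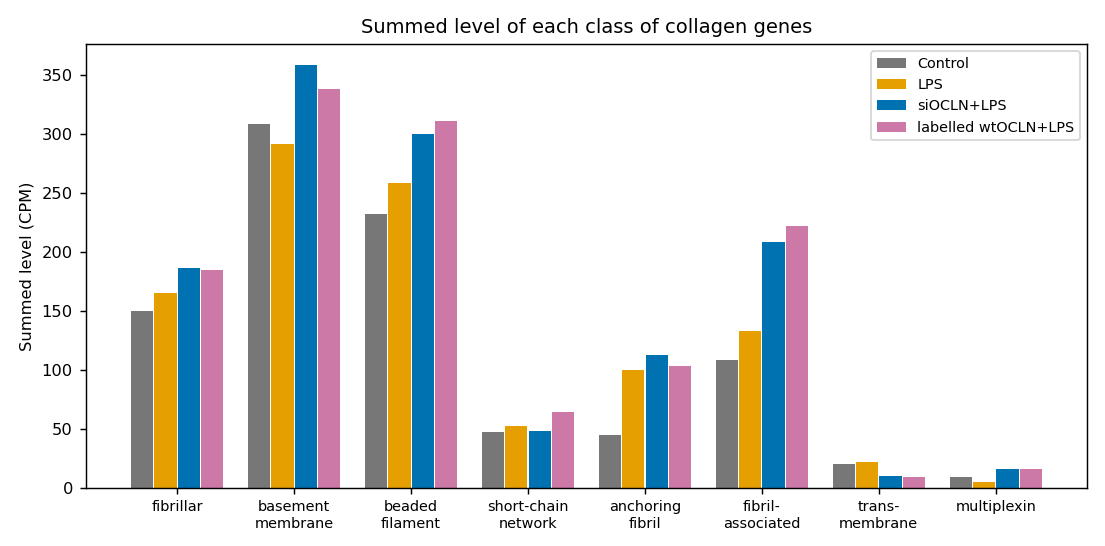
Summed CPM of the collagen genes of each structural class, with 1 bar per library and no error bars because each group has 1 library. The fibril-associated bars stand at 108 and 133 CPM in control and LPS and at 208 and 222 CPM in the transfected libraries, while the transmembrane bars are lower there. In the transfected libraries COL9A3 makes up 135 and 148 CPM of the fibril-associated bars, and COL25A1 makes up most of the transmembrane bars.

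LPS against control sets 2 h of LPS beside no treatment, in cells not named as transfected, with 1 library each. Type VII collagen stood out: COL7A1, the only chain of the anchoring fibril, was at 44.8 CPM in control (712 counts), 99.9 CPM in LPS (1385 counts), 112 CPM with siOCLN+LPS (1964 counts) and 103 CPM for the library labelled wtOCLN+LPS (1804 counts). It was low in control alone, and the 3 libraries that received LPS lay close together. LPS exceeded control 2.23-fold (2.04 to 2.44). Relative to LPS the transfected libraries were 1.13-fold (1.05 to 1.21) and 1.03-fold (0.962 to 1.11). Each transfected library held more COL7A1 than control as well, 2.51-fold (2.30 to 2.74) and 2.30-fold (2.11 to 2.51). All 3 folds over control rest on the same control library, so they are not separate checks.

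COL7A1 was the 1 gene of 25 tested members at least 2-fold apart between LPS and control; a gene was tested when it reached 1 CPM in either library, and the 2-fold limit was set on log2(CPM + 1), where changes of low genes come out too small. Over all 13551 genes tested, 1.81% were 2-fold apart in either direction, 1.60% higher and 0.207% lower, so a count of 1 member is near the background. The members' median difference in log2(CPM + 1) was 0.12, with 19 above 0 and 6 below, beside a median of -0.09 over all genes tested. The count of 1 was the same under all 3 other scalings. By counting error alone, 7 members were higher and 4 lower with an interval that left out 1, beside 9.11% and 31.0% of all genes tested. The 7 were COL4A1, COL5A3, COL6A1, COL7A1, COL8A1, COL12A1 and COL16A1, and the 4 were COL4A3, COL4A4, COL9A3 and COL18A1.

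The promoter of COL7A1 is shown because this was the gene that differed most between LPS and control. It is the 250 bases before the start site on the minus strand of chr3:48595330-48595579, from RefSeq on GRCh38.p14, a later build than the hg19 named for the counts. Capitals mark matches, on either strand, to the TATA box TATAAA, the CCAAT box CCAAT, the GC box GGGCGG, the AP-1 motif TGANTCA, an interferon motif of GAAA, any 2 bases and GAAA again, and the 10-letter NF-kB motif; the middle capitals are a pair of NF-kB matches on opposite strands that overlap.
COL7A1: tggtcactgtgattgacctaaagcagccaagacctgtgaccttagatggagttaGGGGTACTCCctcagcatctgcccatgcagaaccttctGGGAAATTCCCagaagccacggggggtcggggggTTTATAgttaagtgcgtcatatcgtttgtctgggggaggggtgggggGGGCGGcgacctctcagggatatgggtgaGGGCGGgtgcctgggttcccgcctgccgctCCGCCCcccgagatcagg
The window held 3 NF-kB matches, 3 GC boxes and a TATA box read on the opposite strand, and neither AP-1 nor interferon letters. Of 35116 promoter windows of this length, 9.96% held an NF-kB match, 42.6% a GC box and 10.7% a TATA box. Of the 32 collagen genes found in that table, NF-kB letters were present in COL7A1, COL15A1, COL25A1 and COL6A2. A match is a run of letters and not a measured binding site.

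Some other collagens differed between LPS and control by less than 2-fold. COL16A1, a fibril-associated chain, was at 7.99 CPM in control, 14.3 in LPS, 9.78 with siOCLN+LPS and 7.03 for the library labelled wtOCLN+LPS, so that only the LPS library was high. The LPS value was 1.79-fold that of control (1.43 to 2.26). COL4A1, a chain of the type IV network found in all basement membranes, was at 22.2, 33.5, 16.6 and 18.1 CPM in the same order, and LPS exceeded control 1.51-fold (1.31 to 1.74). COL5A3, a fibrillar chain, stood at 8.62, 12.6, 6.75 and 7.43 CPM, and COL12A1, a fibril-associated chain of dense connective tissue, at 59.8, 82.5, 53.8 and 59.1 CPM. All 4 genes were thus highest in the LPS library, where COL5A3 was 1.46-fold (1.16 to 1.84) and COL12A1 1.38-fold (1.26 to 1.5) the control.

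COL18A1 had the opposite order. It encodes the basement membrane proteoglycan whose C-terminal fragment is endostatin. It was at 9.25 CPM in control (147 counts), 4.62 in LPS (64 counts), 10.2 with siOCLN+LPS (179 counts) and 10.8 for the library labelled wtOCLN+LPS (189 counts). Only the LPS library was low, at 0.499 of control (0.366 to 0.673). On the log2(CPM + 1) scale the difference was -0.87, within 2-fold. In GENCODE 29, exons of SLC19A1 on the other strand cover 16.4% of the exonic bases of COL18A1. SLC19A1 itself stayed between 13.7 and 14.7 CPM in all libraries. What reads from the shared bases add to the COL18A1 counts was not tested.

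The siOCLN+LPS library against LPS compares cells transfected with occludin siRNA with cells not named as transfected, so knockdown and transfection cannot be told apart. COL9A3 and COL15A1 stood farthest above the LPS library. COL9A3 was at 33.0 CPM in control (525 counts), 27.3 in LPS (378 counts), 135 with siOCLN+LPS (2363 counts) and 148 for the library labelled wtOCLN+LPS (2591 counts). Both transfected libraries were high and did not come near the others. The fold over LPS was 4.96 (4.45 to 5.54) with siOCLN+LPS and 5.43 (4.87 to 6.07) for the library labelled wtOCLN+LPS.

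Type IX collagen is a heterotrimer in cartilage, and the partners of COL9A3 were not high. COL9A2 had 33, 36, 32 and 38 counts, 2.08, 2.60, 1.83 and 2.17 CPM, and COL9A1 had 0 in all libraries. Among chondrocyte markers, ACAN and COMP, which encode structural proteins of cartilage, had at most 4 counts in any library. SOX9, a transcription factor of chondrocytes that is also found in epithelia, was at 19.1, 23.5, 15.8 and 10.9 CPM. MATN3, a matrilin of cartilage matrix, was at 9.76, 9.16, 20.6 and 19.5 CPM. The whole list of 4 chondrocyte markers summed to 29.1, 32.7, 36.6 and 30.7 CPM.

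COL15A1, a multiplexin of basement membranes, was at 0.126 CPM in control (2 counts), 0.361 in LPS (5 counts), 5.84 with siOCLN+LPS (102 counts) and 5.43 for the library labelled wtOCLN+LPS (95 counts). It was close to the limit of detection without transfection. The ratio to LPS was 16.2 (6.71 to 50.9) with siOCLN+LPS and 15.1 (6.23 to 47.4) for the library labelled wtOCLN+LPS, and these wide intervals come from the 5 counts in LPS. Its promoter, on the plus strand of chr9:98943657-98943906 in GRCh38.p14, is shown because it was the collagen with the widest range over the 4 libraries. The capitals mark an NF-kB match and a GC box, and the window held no interferon motif, which 3.02% of all windows held.
COL15A1: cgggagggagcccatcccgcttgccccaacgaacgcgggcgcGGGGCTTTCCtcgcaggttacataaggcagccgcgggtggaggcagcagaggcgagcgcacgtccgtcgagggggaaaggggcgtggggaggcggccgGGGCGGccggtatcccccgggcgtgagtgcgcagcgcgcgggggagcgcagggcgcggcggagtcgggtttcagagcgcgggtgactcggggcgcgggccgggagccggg

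COL25A1 lay on the other side. It encodes a transmembrane collagen first known from amyloid plaques. It was at 19.5 CPM in control (310 counts), 21.6 in LPS (300 counts), 9.33 with siOCLN+LPS (163 counts) and 8.23 for the library labelled wtOCLN+LPS (144 counts). Both transfected libraries were low. The siOCLN+LPS value was 2.32-fold below LPS (1.91 to 2.82) and the value for the library labelled wtOCLN+LPS 2.63-fold below (2.15 to 3.23). Its promoter, on the minus strand of chr4:109302659-109302908 in GRCh38.p14, is set here against that of COL15A1, which lay on the opposite side; both held an NF-kB match, and that of COL25A1 held no GC box.
COL25A1: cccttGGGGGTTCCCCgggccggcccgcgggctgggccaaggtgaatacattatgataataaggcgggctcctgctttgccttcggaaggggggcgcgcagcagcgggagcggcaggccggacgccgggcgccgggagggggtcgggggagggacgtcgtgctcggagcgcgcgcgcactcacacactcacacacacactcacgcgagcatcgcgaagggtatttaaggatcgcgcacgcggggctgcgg

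COL27A1, a fibrillar chain of cartilage, was low in the same libraries. Its levels were 3.65 CPM in control (58 counts), 3.75 in LPS (52 counts), 1.54 with siOCLN+LPS (27 counts) and 1.09 for the library labelled wtOCLN+LPS (19 counts). The fold below LPS was 2.43 (1.5 to 4.02) and 3.45 (2.01 to 6.19). On the log2(CPM + 1) scale these were -0.90 and -1.19, so that only the second was counted as 2-fold lower.

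COL18A1 with siOCLN+LPS was 2.22-fold LPS (1.66 to 3.0), and for the library labelled wtOCLN+LPS 2.34-fold (1.75 to 3.16). Both values rest on the low LPS library: against control the ratios were 1.11 (0.885 to 1.39) and 1.17 (0.936 to 1.46). Its siOCLN+LPS difference of 1.0 on the log2(CPM + 1) scale was the smallest that was counted, and the largest that was not was that of COL4A1, at -0.97.

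In siOCLN+LPS against LPS, 3 of 26 tested members were at least 2-fold higher (COL9A3, COL15A1, COL18A1) and 1 was lower (COL25A1), beside 7.25% of 13505 genes in either direction, 3.32% higher and 3.92% lower. In the library labelled wtOCLN+LPS against LPS the same 3 were higher, and COL25A1 and COL27A1 were lower, beside 7.01% of 13493 genes in either direction, 3.32% higher and 3.69% lower. The members called made up 15.4% and 19.2% of those tested. Of these, COL15A1 passed the 1 CPM filter only through the transfected libraries, where it was high, and was at 0.361 CPM in LPS. Its place in these counts therefore adds no support. By counting error alone, 10 members were higher and 7 lower in each comparison, beside 24.7% and 42.5% of all genes in the first and 22.8% and 44.0% in the second. The 7 lower members were COL1A1, COL4A1, COL5A3, COL12A1, COL16A1, COL25A1 and COL27A1 in both. The counts by interval, and the shares beside them, were taken with library totals only. COL1A1 was at 0.896 and 0.881 of LPS, and differences this small depend on the scaling. Both comparisons use the LPS library, so the second is not a separate check on the first. The members' median difference in log2(CPM + 1) was 0.09 in the first and 0.01 in the second, beside -0.13 and -0.15 over all genes tested; the second was -0.07 with the trend on transcript length and GC content removed. With median ratio or TMM scaling (a trimmed mean of ratios), which moved the median over all genes to 0.01 in each comparison, the split of the first was 3 higher and 0 lower, with COL25A1 just within 2-fold, and that of the second was 4 higher, with COL5A1 added, and 2 lower. Over all genes, the share of calls that were higher went from 45.9% to 61.5% with TMM in the first comparison and from 47.4% to 64.9% in the second.

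**Figure D3:**
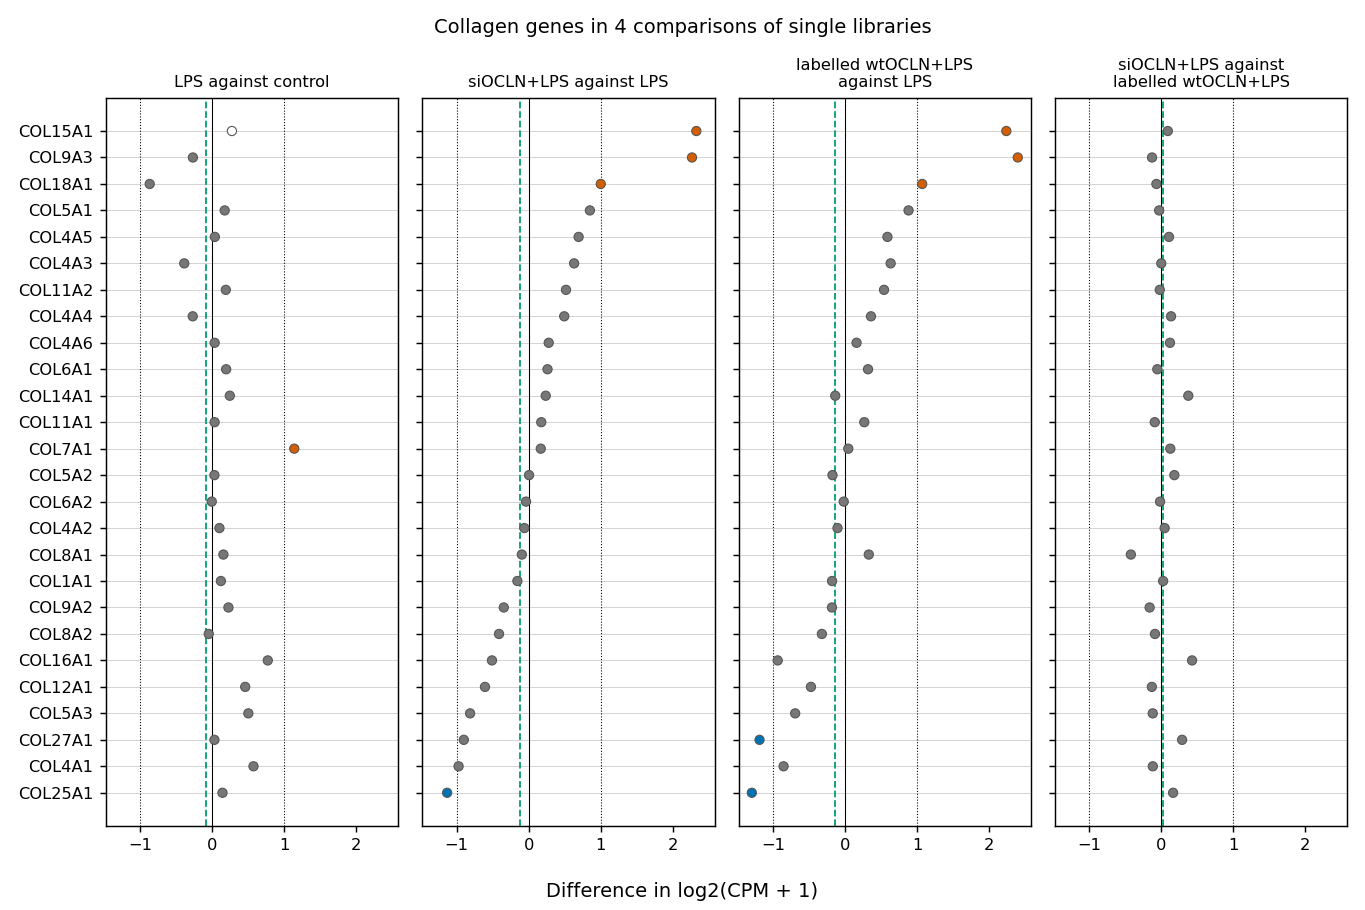
Difference in log2(CPM + 1) of 26 collagen genes in 4 comparisons of single libraries, with the genes in the order of siOCLN+LPS against LPS. Dotted lines mark 2-fold, the dashed line is the median of all genes tested, orange and blue points are at least 2-fold higher and lower, and the open point was not tested; no point passes the dotted lines in the comparison of the transfected libraries.

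With control in place of LPS as the reference, 4 members were at least 2-fold higher in each transfected library: COL5A1, COL7A1, COL9A3 and COL15A1. Of all genes, 9.38% were apart between siOCLN+LPS and control, 3.94% higher and 5.44% lower. Between the library labelled wtOCLN+LPS and control 8.82% were apart, 3.91% higher and 4.91% lower. COL9A3 was 4.09-fold (3.72 to 4.51) and 4.48-fold (4.08 to 4.93) above control. COL15A1, with 2 counts in control, had ratios of 46.4 (12.5 to 388) and 43.1 (11.6 to 361). Here too COL15A1 was tested only through the transfected libraries, being at 0.126 CPM in control. COL25A1 and COL27A1 were at least 2-fold lower than control for the library labelled wtOCLN+LPS. With siOCLN+LPS they were at -0.99 and -0.87 in log2(CPM + 1), within the limit, although their CPM ratios were 2.09-fold (1.73 to 2.54) and 2.36-fold (1.47 to 3.88) below control.

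COL5A1 encodes a chain of type V collagen, which sets the diameter of type I fibrils. It was at 30.2 CPM in control, 34.1 in LPS, 62.3 with siOCLN+LPS and 63.7 for the library labelled wtOCLN+LPS. Both transfected libraries were high, 1.83-fold (1.64 to 2.04) and 1.87-fold (1.68 to 2.08) over LPS. Its partner COL5A2 was at 27.4, 28.0, 28.1 and 24.7 CPM and showed no such step. The related chain COL11A2 was at 11.1, 12.8, 18.8 and 19.1 CPM, 1.47-fold (1.22 to 1.77) and 1.49-fold (1.24 to 1.80) over LPS, and COL11A1 at 10.8, 11.0, 12.6 and 13.5 CPM.

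The 6 type IV collagen genes lie as 3 head-to-head pairs, and the pairs did not behave alike. COL4A1 and COL4A2, the chains of the general basement membrane, start 127 bases apart on opposite strands of chromosome 13 in GRCh38.p14. The run between their starts is shown because it lies upstream of both; it is written on the COL4A2 strand, chr13:110307158-110307283, with a CCAAT box and a GC box in capitals.
COL4A1/COL4A2: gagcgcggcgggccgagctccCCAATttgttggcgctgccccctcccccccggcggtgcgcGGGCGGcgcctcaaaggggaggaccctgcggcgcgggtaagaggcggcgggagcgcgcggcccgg
Of all windows of 126 bases before a start, 21.1% held the CCAAT letters and 34.6% the GC box. COL4A2 was at 65.4 CPM in control, 70.2 in LPS, 67.3 with siOCLN+LPS and 65.2 for the library labelled wtOCLN+LPS, nearly level. COL4A1 had its highest value in LPS and its lowest in the transfected libraries, 2.02-fold (1.74 to 2.35) and 1.85-fold (1.60 to 2.14) below LPS. Per kilobase the COL4A1 to COL4A2 ratio was 0.334 in control (0.295 to 0.377), 0.469 in LPS (0.419 to 0.524), 0.242 with siOCLN+LPS (0.212 to 0.276) and 0.273 for the library labelled wtOCLN+LPS (0.240 to 0.309).

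COL4A3 and COL4A4, chains of the specialised network of alveolar and glomerular basement membranes, start 419 bases apart on chromosome 2. COL4A4 was at 150 CPM in control (2384 counts), 124 in LPS (1722 counts), 175 with siOCLN+LPS (3064 counts) and 160 for the library labelled wtOCLN+LPS (2795 counts). COL4A3 was at 35.4, 26.8, 42.1 and 42.2 CPM. For both genes LPS was the lowest library and siOCLN+LPS and the library labelled wtOCLN+LPS the highest. LPS held 0.757 of the control COL4A3 level (0.662 to 0.865) and 0.828 of the COL4A4 level (0.777 to 0.881). Over LPS, siOCLN+LPS was 1.57-fold higher in COL4A3 (1.38 to 1.78) and 1.41-fold in COL4A4 (1.33 to 1.5). The promoter of COL4A3, on the plus strand of chr2:227164374-227164623 in GRCh38.p14, is shown beside the shared run of COL4A1 and COL4A2. It held 2 GC boxes and no CCAAT box.
COL4A3: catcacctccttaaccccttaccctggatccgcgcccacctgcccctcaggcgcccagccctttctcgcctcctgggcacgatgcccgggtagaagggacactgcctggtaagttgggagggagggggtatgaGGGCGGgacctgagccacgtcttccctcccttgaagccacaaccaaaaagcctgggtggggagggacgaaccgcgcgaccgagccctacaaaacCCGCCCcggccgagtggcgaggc

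COL4A5, the partner of the preceding chains in that network, was at 28.9 CPM in control, 29.7 in LPS, 48.7 with siOCLN+LPS and 45.2 for the library labelled wtOCLN+LPS. The transfected libraries were high, 1.64-fold (1.46 to 1.85) and 1.52-fold (1.35 to 1.72) over LPS. COL4A6, which shares its 5′ region, was at 6.67, 6.85, 8.53 and 7.77 CPM. Its intervals against LPS held 1 in both transfected libraries, from 0.956 to 1.63 and from 0.866 to 1.49.

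Partner chains shifted within other types too. The COL5A1 to COL5A2 ratio per kilobase was 0.921 in control (0.807 to 1.05), 1.02 in LPS (0.889 to 1.17), 1.85 with siOCLN+LPS (1.66 to 2.07) and 2.16 for the library labelled wtOCLN+LPS (1.93 to 2.42). The COL6A1 to COL6A2 ratio was 3.38 (3.11 to 3.67), 3.88 (3.56 to 4.24), 4.78 (4.43 to 5.17) and 4.91 (4.55 to 5.31) in that order. COL6A2 was level at 45.1, 44.9, 43.7 and 44.3 CPM, while COL6A1 was at 186, 213, 256 and 266 CPM. These ratios are taken within a library, so scaling between libraries does not touch them, although the transcript counted for each gene's length does.

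**Figure D4:**
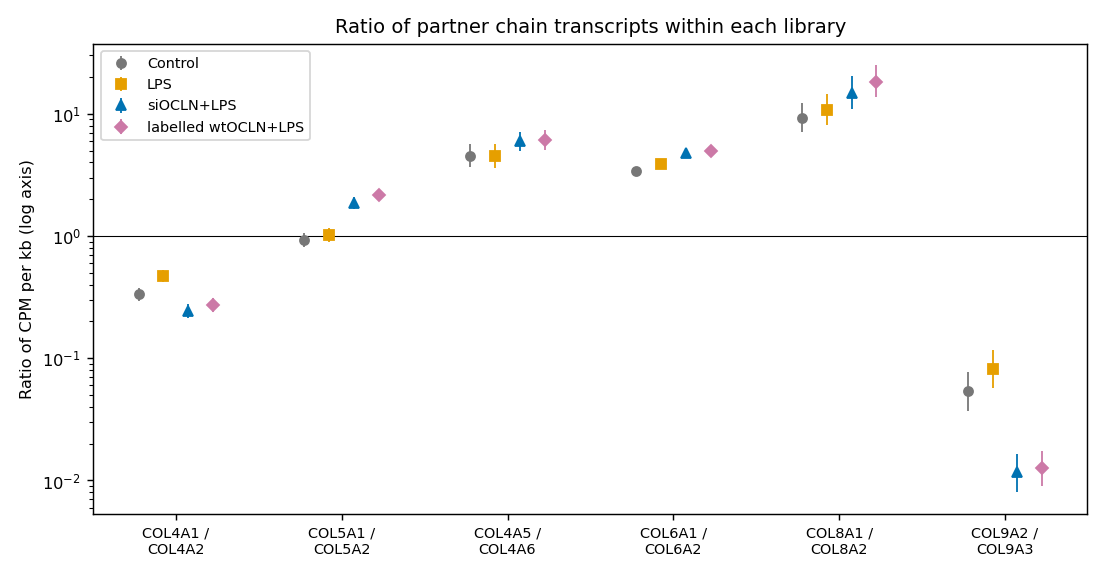
Ratio of CPM per kilobase between 6 pairs of partner chains in each library, on a logarithmic axis, with exact 95% intervals for counting error. The COL5A1 to COL5A2 ratio is near 1 in control and LPS and at 1.85 and 2.16 in the transfected libraries, and the COL9A2 to COL9A3 ratio drops there from 0.0544 and 0.0824 to 0.0117 and 0.0127.

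The siOCLN+LPS library and the library labelled wtOCLN+LPS were both transfected, and they differed little in collagen genes, as in genes at large. None of 26 tested members was 2-fold apart, beside 0.366% of 13109 genes (0.0763% higher and 0.290% lower). None was at 1.5-fold, beside 1.95% of all genes. By counting error alone 4 members were higher and 3 lower, beside 15.1% and 11.9% of all genes. All these counts are near the background. Members' differences in log2(CPM + 1) ran from -0.42 (COL8A1) to 0.43 (COL16A1). COL8A1, a short-chain network collagen, was at 43.4 CPM in control, 48.4 in LPS, 45.3 with siOCLN+LPS and 61.1 for the library labelled wtOCLN+LPS, so only the last library was high. The siOCLN+LPS value was 0.741 of it (0.675 to 0.813). COL16A1 was 1.39-fold (1.10 to 1.77) and COL14A1 1.35-fold (1.02 to 1.81) higher with siOCLN+LPS. COL9A3 was 0.913 (0.863 to 0.966) and COL15A1 1.08 (0.805 to 1.44) of the other transfected library. COL14A1, a fibril-associated chain, was at 4.59, 5.63, 6.81 and 5.03 CPM. The most level members were COL1A1, COL4A2, COL5A2 and COL6A2, whose differences in log2(CPM + 1) stayed between -0.18 and 0.18 in these 4 comparisons; the sign of differences this small changes with the scaling. COL8A2 was at 3.84, 3.68, 2.52 and 2.74 CPM, and its intervals against LPS held 1 in both transfected libraries.

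Genes that fold and modify collagen chains were mostly within 2-fold, as were most genes. Of 21 genes in that list, 18 were tested in LPS against control and none was 2-fold apart, beside 1.81% of all genes. The median difference in log2(CPM + 1) was -0.13, beside -0.09 over all genes. SERPINH1 was at 180 CPM in control, 160 in LPS, 138 with siOCLN+LPS and 149 for the library labelled wtOCLN+LPS, and the prolyl hydroxylase subunit P4HB at 746, 674, 707 and 731 CPM. In siOCLN+LPS against LPS, 1 of 18 was lower and none higher (median 0.00), beside 7.25% of all genes apart, so this count is near the background. The lower gene was CREB3L1, a transcription factor of secretory cells, with 56 counts in LPS and 7 with siOCLN+LPS. In the library labelled wtOCLN+LPS it had 8 counts, and P3H2, a prolyl 3-hydroxylase, was 2.12-fold higher (1.86 to 2.43). The list median there was -0.05, and 7.01% of all genes were apart.

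Processing and cross-linking genes were higher at the median in the transfected libraries than in LPS. The list also holds matrix proteins such as BGN, FN1 and SPARC. Like the other lists, it was chosen with earlier results of these data known, so setting it beside all genes is not an independent check. Of 14 tested, 4 were 2-fold or more above LPS with siOCLN+LPS and none lower (median 0.54), and for the library labelled wtOCLN+LPS the same 4 were higher and FN1 was lower (median 0.46). Over all genes 7.25% and 7.01% were 2-fold apart, 3.32% higher in each, and the medians were -0.13 and -0.15. The 4 were BGN, LOXL1, ADAMTS2 and ADAMTS3. BGN, a small proteoglycan that binds fibrils, was at 61.1 CPM in control, 59.8 in LPS, 339 with siOCLN+LPS and 332 for the library labelled wtOCLN+LPS. LOXL1, a cross-linking oxidase, was 2.93-fold (2.57 to 3.35) and 3.03-fold (2.65 to 3.46) over LPS. The procollagen N-proteinase ADAMTS2 was 2.16-fold (1.73 to 2.71) and 2.23-fold (1.79 to 2.80) over LPS. FN1, fibronectin, was at 741 CPM in LPS, 395 with siOCLN+LPS and 358 for the library labelled wtOCLN+LPS. LOX, the founding cross-linking oxidase, was at 97.9 CPM in control and 159 in LPS, 1.62-fold higher (1.52 to 1.74), and at 159 and 178 CPM in the transfected libraries. In LPS against control none of these 14 was 2-fold apart, beside 1.81% of all genes.

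Among 16 genes of receptors for collagen or other matrix proteins, 12 were tested in LPS against control. None was 2-fold apart, beside 1.81% of all genes. Again 12 were tested with siOCLN+LPS against LPS, with ITGB4 higher and DDR2 lower; of 13 tested for the library labelled wtOCLN+LPS, the same genes were. These 2 genes stand beside 7.25% and 7.01% of all genes, and the list medians of 0.18 in each beside -0.13 and -0.15. ITGB4, a hemidesmosome integrin subunit that binds laminin rather than collagen, was 2.11-fold (2.03 to 2.19) and 2.05-fold (1.98 to 2.13) over LPS. DDR2, a receptor for fibrillar collagen, had 79 counts in LPS and 22 and 17 in the transfected libraries. DDR1, its epithelial relative, was at 115 CPM in control, 145 in LPS, 246 with siOCLN+LPS and 237 for the library labelled wtOCLN+LPS. ITGB1 was at 848, 859, 1005 and 976 CPM. Of the 20 regulator genes, 19 were tested in LPS against control, and only TGFB2 was 2-fold apart, beside 1.81% of all genes. TGFB2 was 2.09-fold higher (1.86 to 2.35), at 28.2, 59.0, 56.2 and 90.7 CPM in the 4 libraries. CTGF was the 1 regulator at least 2-fold apart from LPS in each transfected library, 2.66-fold (2.59 to 2.72) and 2.79-fold (2.72 to 2.85) higher. Of all genes, 7.25% and 7.01% were apart in these comparisons. Between the transfected libraries no gene of these 4 lists was 2-fold apart, beside 0.366% of all genes.

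The genes whose pattern over the 4 libraries was most like that of COL15A1 were sought among 10402 genes at 5 CPM or more in every library, by the Euclidean distance between mean-centred log2(CPM + 1) values. The nearest was BGN at a distance of 0.22, then FSTL3 (0.24), ALDH3A1 (0.30), SDC2 (0.33) and SULF1 (0.35). EDN2, JPH2, ACSL5, SAMD5 and TP53I11 completed the nearest 10, up to 0.46. In all 10 both transfected libraries stood above the other two. With 4 libraries, any gene with a like step at transfection lies close. COL15A1, at 0.126 and 0.361 CPM in control and LPS, did not pass the 5 CPM filter itself, so no gene that low could be found. Adding 1 to each CPM also shrinks its step. In siOCLN+LPS against LPS a CPM ratio of 16.2 became a difference of 2.33 in log2(CPM + 1).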

How the data were processed

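RNA libraries were made with a directional kit from BEAS-2B cells, per the labels' protocols, and 1 library represents each group. The deposited values are whole-number counts of reads per gene symbol. The submitters' processing notes name TopHat, Cufflinks and hg19, with no version and no role. What counted the reads, with which strand setting and which gene models, is not given in the sources used here. From the deposited counts, CPM by library total were computed. Ratios used log2(CPM + 1), genes that reached 1 CPM in either library were tested, and 2-fold or more was counted. Folds are CPM ratios with Clopper-Pearson intervals, and single levels have exact Poisson intervals. Each gene's length and GC content were those of its longest GENCODE 29 transcript (21849 symbols). Without replicates edgeR's quasi-likelihood test has no residual degrees of freedom; edgeR 4.0.16 gave the TMM factors. The call step was tried on simulated counts with counting error alone and changes set only in higher-expressed genes. That trial says nothing of variation between cultures or of changes in genes with few counts. Members and gene lists were chosen with earlier results of these data known. Named were all members at 1 CPM or more, with every library's value for those the text describes, and, of each related list, genes at least 2-fold apart plus SERPINH1, P4HB, LOX, DDR1 and ITGB1. Promoter windows were found for 32 of the 44 members. Other settings tried were a pseudocount of 0.1 or 5, a filter at 5 CPM or none, 1.5- and 3-fold thresholds, 3 scalings, removal of the trend on length and GC content, and control as reference. Python 3.11.15, SciPy 1.17.1 and R 4.3.3 were used.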

Additional observations from a re-analysis of the deposited data

How the results depend on the processing

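No paired analysis was possible because each group has 1 library. The counts of collagen genes 2-fold apart were 1 in LPS against control, 4 in siOCLN+LPS against LPS, 5 in the library labelled wtOCLN+LPS against LPS and 0 between the transfected libraries. They were within 1.5 times those values under each setting tried other than the following. At a threshold of 1.5-fold they were 3, 11 and 11 in the first 3 comparisons, while 3-fold gave 0, 2 and 2. With a pseudocount of 5, under which 3.07% and 3.16% of all genes were called, both comparisons with LPS gave 2, COL9A3 with COL15A1 in siOCLN+LPS and COL9A3 with COL25A1 in the library labelled wtOCLN+LPS. Over all genes, the shares called at 1.5- and 3-fold were 6.24% and 0.694%, 24.3% and 1.69%, and 23.7% and 1.75% in the first 3 comparisons, and 1.95% and 0.0763% in the fourth. COL18A1 was no longer 2-fold above LPS with the length and GC trend removed (0.89 and 0.93 in log2). The summed collagen level in control, LPS, siOCLN+LPS and the library labelled wtOCLN+LPS was 735, 814, 983 and 982 CPM without COL6A1, and 831, 988, 1321 and 1349 CPM with TMM scaling. By coding length, the COL6A1 to COL6A2 ratio in control was 4.10. No called member changed direction under any setting. Genes under about 5 counts, such as COL15A1 without transfection, are limited by depth.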
